A study of Mus musculus with 3 samples.

Results

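Tetraspanins are small proteins that cross the cell membrane repeatedly, and 7 of them were followed here across the cells of leukemic mouse blood: Cd9, Cd82, Cd63, Cd81, Cd37, Cd53 and Cd151. The genes were chosen by name, and all 7 were found among the 32285 features of the count tables. Peripheral blood (PB) leukocytes of wild-type Balb/C mice were measured by single-cell RNA sequencing in 3 libraries, 1 from naive mice and 1 each from mice taken 11 days (D11) and 14 days (D14) after engraftment with BBC2 cells, a mouse leukemia line that carries the BCR-FGFR1 chimeric kinase and resembles pro-B cells. The mice were young females by the study's methods, red cells had been lysed and dead cells removed, and BBC2 is a single cell line. The number of mice behind each library is not given in the sources used here. All 3 libraries share the wild-type genotype and the strain, and the naive mice received no BBC2 cells. With 1 library per condition there is no replicate, so no difference below was tested against the spread between mice. The intervals cover counting error only.

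Tetraspanins act mostly by holding other membrane proteins together in patches of the membrane, where they set how long integrins, receptors and proteases stay at the surface. Cd9 is found on platelets and many myeloid cells and affects cell fusion, and Cd81 is found on B cells and many other cells. Cd37 and Cd53 are largely restricted to leukocytes, and Cd63 marks lysosomes, granules and exosomes. Cd82 associates with integrins in activated leukocytes, and Cd151 binds laminin-binding integrins. Blood monocytes run from classical cells (cMono), newly released from the marrow, to non-classical cells (ncMono) that patrol the vessel wall.

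Cells were put into classes by fixed lists of marker genes and every class is called "-like" for that reason. The UMIs (individually tagged transcript molecules) of a gene were added up within each class and scaled to a class total of 1000000 (CPM). Reads come from the 3′ end of transcripts, so a level does not scale with gene length, although capture can still differ between genes. The libraries held 3811, 4567 and 4414 barcodes that passed the filters in naive, D11 and D14. The classes used most were neutrophil-like (1293, 1562 and 1257 cells), ncMono-like (125, 194 and 612), cMono-like (116, 186 and 61), T-like (1240, 260 and 108), NK-like (196, 196 and 57) and mature B-like cells (399, 263 and 40). Early B-like cells, which carry markers of B-cell progenitors, numbered 4, 102 and 751. No gene used here tells engrafted from host cells. The class rule asks for a class's own markers, so their counts describe the cells and do not check the classes. The median was 7 to 8 of 8 markers per cell in ncMono-like and 6 to 7 of 7 in cMono-like cells. It was 7 of 8 in T-like and 5 to 7 of 8 in neutrophil-like cells. From 4.6% to 5.06% of the filtered barcodes carried markers of 2 classes and were left out. Pairs of libraries shared 12 to 18 cell barcodes. Hemoglobin genes took 11.2%, 55.9% and 22.5% of all UMIs in naive, D11 and D14.

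The promoter windows of Cd9 and Cd37 are shown for their contrast in B-lineage cells. Among the larger classes Cd9 was lowest in early B-like cells of D11 and D14, and Cd37 was highest in mature B-like cells. Each window runs from 250 bases before to 50 bases after the RefSeq start in the GRCm38.p6 build. The capitals mark the GC box GGGCGG, searched on both strands. Cd9 has its window at chr6:125494711-125495010 and Cd37 at chr7:45238790-45239089, both on the minus strand. The genes lie at chr6:125460266-125494791 (Cd9) and chr7:45233632-45239115 (Cd37) in GRCm38. Cd81 and Cd151 are also on chromosome 7, Cd82 is on chromosome 2, Cd53 on chromosome 3 and Cd63 on chromosome 10.

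Cd9: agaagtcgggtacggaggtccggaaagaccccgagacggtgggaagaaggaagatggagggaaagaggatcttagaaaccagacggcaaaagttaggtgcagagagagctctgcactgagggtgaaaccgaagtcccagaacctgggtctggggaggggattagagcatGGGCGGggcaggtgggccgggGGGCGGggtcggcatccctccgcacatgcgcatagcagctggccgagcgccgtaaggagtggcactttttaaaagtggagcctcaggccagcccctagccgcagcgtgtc
Cd37: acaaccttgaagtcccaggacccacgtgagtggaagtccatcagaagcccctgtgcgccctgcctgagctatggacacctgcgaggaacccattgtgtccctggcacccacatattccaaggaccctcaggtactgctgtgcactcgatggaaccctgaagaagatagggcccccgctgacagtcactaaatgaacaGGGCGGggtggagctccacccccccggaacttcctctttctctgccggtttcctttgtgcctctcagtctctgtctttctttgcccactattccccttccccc

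The Cd9 window held 18 CG pairs and 2 GC boxes, which begin 81 and 60 bases before the start. The Cd37 window held 8 CG pairs, close to the median of 7 over 32851 mouse windows, and 1 GC box that begins 53 bases before the start. A GC box was present in 35.7% of all windows. The letters TATAAA were in neither window and in 13.6% of all windows. The ETS core GGAAGT, a site for a family of factors active in blood cells, had 2 matches in the Cd37 window and 0 in that of Cd9, against a share of 23.8% of all windows. A match describes the letters only.

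Among the larger classes of the naive library Cd9 was highest in neutrophil-like and ncMono-like cells. Its level was 472 CPM in neutrophil-like cells, 331 in ncMono-like cells, 131 in NK-like cells and 42.0 in T-like cells, and the 95% intervals of neighbours in that order did not overlap. Erythroid-like (10.0 CPM), cMono-like (4.799) and mature B-like cells (3.598) followed with overlapping intervals. Rare classes were higher still. Platelet-like barcodes had 6741 CPM in naive (6 barcodes) and 6426 in D14 (16 barcodes), and basophil-like cells had 991, 714 and 1487 CPM from 11, 11 and 2 cells.

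**Figure D1:**
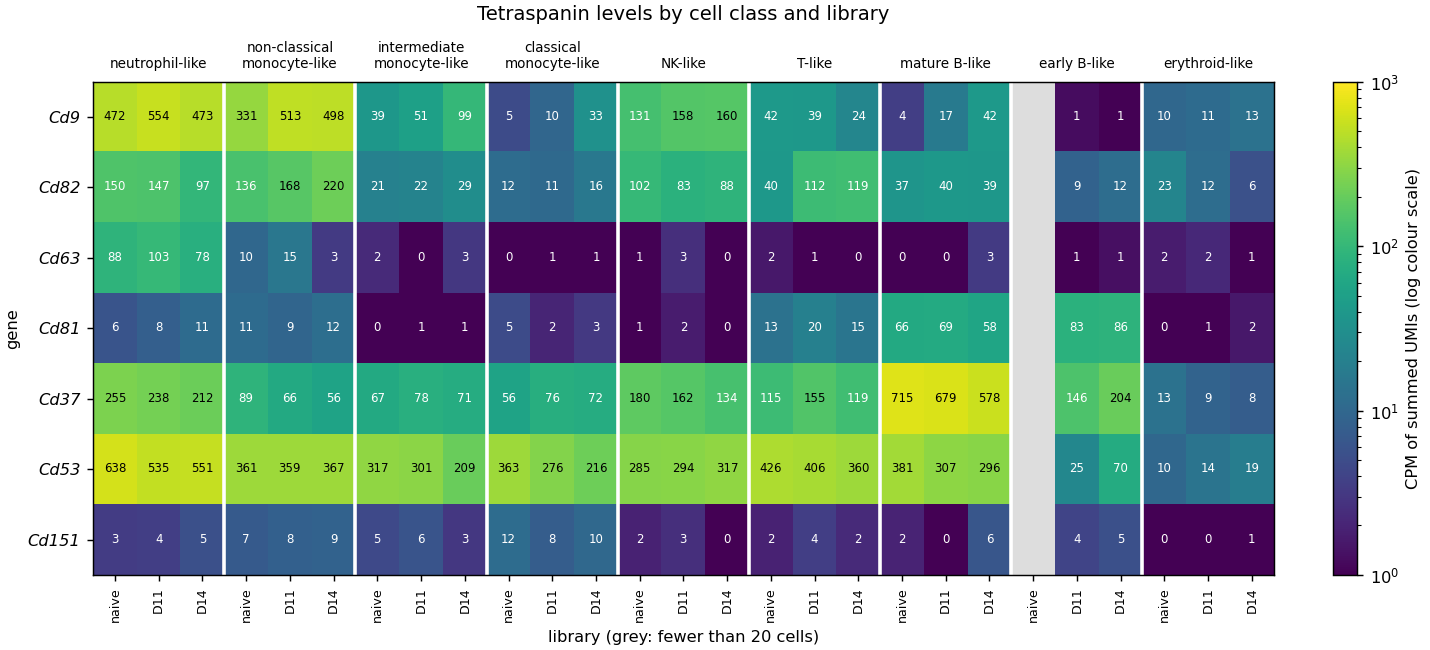
Map of the 7 tetraspanins (rows) in 9 cell classes and 3 libraries (columns), with the level in CPM of summed UMIs written in each cell and as colour on a log scale, and fewer than 20 cells in grey. Cd53 was high in most leukocyte classes and low in early B-like cells, Cd37 was highest in mature B-like cells, and Cd9 was highest in neutrophil-like and ncMono-like cells.

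Among monocyte-like cells Cd9 separated the classical and non-classical ends most in naive and D11 among members with a mean of at least 50 CPM. In D14 it did so about as much as Cd82. The study already lists Cd9 among the genes that define its ncMono cluster in these data. Pparg, Cd300e and Adgre4, which the study lists there too, are in the ncMono marker list used here. The contrast therefore describes a gene known to differ and is no independent result. The study also counts Cd9 among macrophage markers found only or mainly in its ncMono cluster of blood cells. In the marker classes used here, which are not its clusters, neutrophil-like cells were above ncMono-like cells in naive (472 against 331 CPM). The intervals of these 2 classes overlapped in D11 and D14. ncMono-like cells had 68.9-fold the level of cMono-like cells in naive (331 against 4.799 CPM, log2 6.11 with a 95% interval of 5.05 to 7.43), 52.4-fold in D11 (513 against 9.79, log2 5.71) and 15.3-fold in D14 (498 against 32.7, log2 3.93, 3.49 to 4.41). Intermediate monocyte-like cells, with markers of both ends, lay between at 39.0 (38 cells), 50.6 and 98.5 CPM. The size of the ratio leaned on the class rule. When cells with markers of a second class were kept it was 4.22, 4.65 and 3.48 on the log2 scale. Cd82 had the same order, with 136, 168 and 219.5 CPM in ncMono-like cells against 11.7, 10.6 and 15.9 in cMono-like cells, a ratio of 11.7, 15.9 and 13.8. Cd37 and Cd53 did not follow it. Cd37 was 1.61-fold higher in ncMono-like cells in naive, and 0.767-fold of the cMono-like level in D14. Cd53 was equal in both ends in naive (361 and 363 CPM) and 1.70-fold higher in ncMono-like cells in D14. Of the 4 members with a mean of at least 50 CPM, 2 (Cd9 and Cd82) were past 2-fold in each library, where 21.6% of all genes were past it in naive, 16.9% in D11 and 23.4% in D14.

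**Figure D2:**
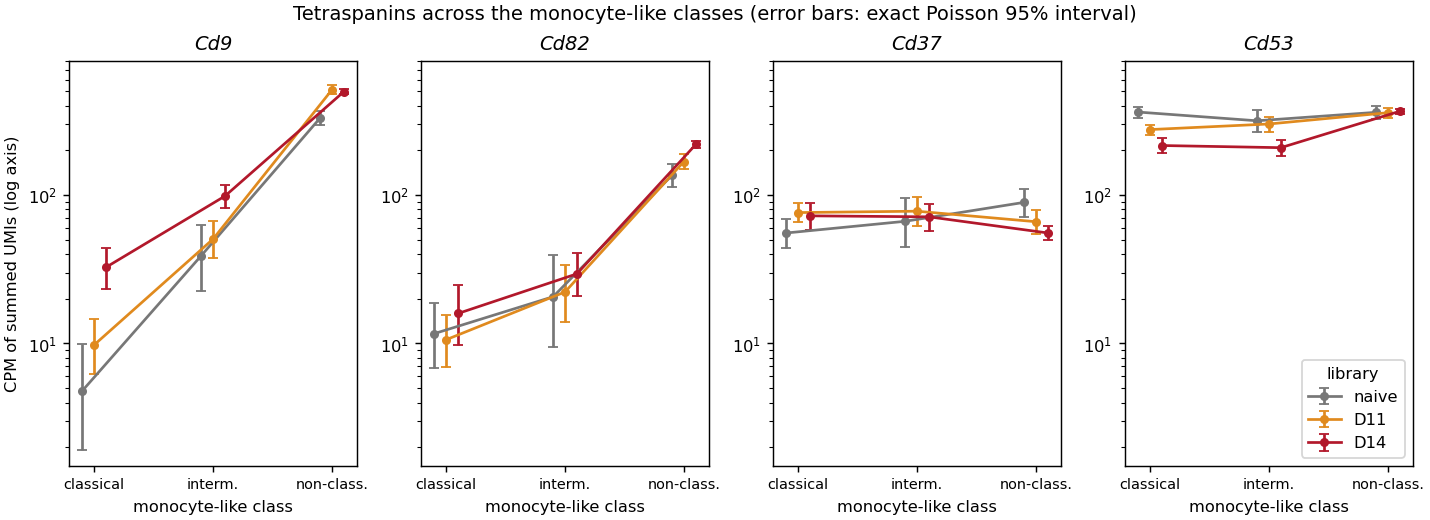
Level of Cd9, Cd82, Cd37 and Cd53 (CPM of summed UMIs, log axis) in classical, intermediate and non-classical monocyte-like cells of each library, with exact Poisson 95% intervals as error bars. Cd9 climbs from 4.799 to 331 CPM in naive and from 32.7 to 498 in D14, while Cd37 and Cd53 differ by at most 1.70-fold between the classical and non-classical ends.

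The narrower Cd9 ratio in D14 came with a higher level at the classical end. The 61 cMono-like cells of D14 held 41 Cd9 UMIs in 18 cells (29.5% of them). The 116 cMono-like cells of naive held 7 UMIs in 5 cells. The ratio of CPM was 6.80-fold (3.02 to 18.0). D14 cells were also deeper, with a median of 20275 UMIs against 12578 in naive, and these cell counts are not adjusted for depth. The highest single cMono-like cell of D14 held 9 Cd9 UMIs, which the counting interval does not take into account. Cells without any UMI of 8 platelet markers had 3.09, 8.54 and 23.8 CPM in naive, D11 and D14. These values rest on 4, 19 and 26 Cd9 UMIs. The ncMono marker genes summed to 255, 248 and 308 CPM in cMono-like cells. At the ratio of Cd9 to those markers in ncMono-like cells, such marker counts would bring 15.8, 22.4 and 31.2 CPM of Cd9, which is above the measured level in naive and D11 and close to it in D14. In intermediate monocyte-like cells the same ratio would bring 116, 167 and 181 CPM, above the measured 39.0, 50.6 and 98.5 in all 3 libraries. In cMono-like cells the neutrophil markers would bring 11.8, 10.46 and 6.13 CPM. The part of these markers in the Cd9 level was not tested.

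Within ncMono-like cells, Cd9 and Cd82 were higher in the leukemic libraries, Cd37 was lower and Cd53 was level in CPM. Cd9 was 331, 513 and 498 CPM in naive, D11 and D14, a 1.55-fold ratio in D11 (1.36 to 1.77) and 1.51-fold in D14 (1.34 to 1.69). The D11 and D14 levels did not differ beyond counting error (log2 -0.04, -0.15 to 0.07). Cd82 was 136, 168 and 219.5 CPM, 1.24-fold in D11 (1.01 to 1.53) and 1.61-fold in D14 (1.35 to 1.94), and D14 was also above D11 by 1.30-fold. The other members went differently. Cd37, at 89.3, 66.2 and 55.6 CPM, was at 0.741-fold in D11 (0.555 to 0.991) and 0.622-fold in D14 (0.491 to 0.796). TMM factors would add 0.09 to its D11 log2 ratio, and that interval would then include no difference. Cd53, at 361, 359 and 367 CPM, had a D14 ratio of 1.02-fold (0.908 to 1.14), or a log2 ratio of 0.24 with TMM factors (0.08 to 0.40). None of the 4 members with a mean of at least 50 CPM was past 2-fold in D14, and 5.29% of 3689 genes were. Their median log2 ratio was 0.31, beside 0.01 over all those genes. Scaling by TMM factors instead of totals would add 0.21 to each D14 log2 ratio of this class, and -0.13, 0.31, -0.14 and -0.07 to those of cMono-like, neutrophil-like, T-like and NK-like cells.

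The Cd9 difference in ncMono-like cells was spread over the cells. Of the naive cells 24.0% had no Cd9 UMI, against 12.4% in D11 and 5.23% in D14, and the median was 2, 3 and 4 UMIs per cell. The highest single cell held 15, 24 and 22 UMIs. D14 cells were deeper (median 9235 UMIs, against 7829 in naive and 7890 in D11), so each cell was also thinned to 1000 UMIs. A Cd9 UMI was then left in 25.6% of naive cells (18.2 to 34.2), 44.9% of D11 cells (37.7 to 52.1) and 37.3% of D14 cells (33.4 to 41.2), with no cell too shallow to enter. Without thinning the shares were 76.0%, 87.6% and 94.8%. In early B-like cells, where Cd9 was lowest, 3.92% in D11 and 3.06% in D14 had a Cd9 UMI, at median depths of 29986 and 31482 UMIs.

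Platelet and neutrophil markers were not higher in the leukemic ncMono-like cells. The 8 platelet markers summed to 10.2, 4.14 and 4.25 CPM in ncMono-like cells, with 5, 5 and 4 of them at 0. The 7 basophil markers summed to 5.07, 0 and 0.164 CPM and the 8 NK markers to 74.1, 19.5 and 7.68. Cells without a platelet marker gave 346, 518 and 499 CPM of Cd9. The neutrophil markers summed to 184, 182 and 141 CPM, and at the neutrophil-like ratio they would bring 7.44, 6.19 and 2.61 CPM of Cd9. Cells without a neutrophil marker, a choice made after the data were seen, gave 374, 572 and 523 CPM from 48, 80 and 171 cells. The part of other cells' transcripts in the Cd9 difference of ncMono-like cells was not tested.

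Among the UMIs of the 7 members in ncMono-like cells, Cd9 took 35.0% in naive (31.9 to 38.1), 45.0% in D11 and 42.8% in D14 (41.6 to 43.9). Cd53 took 38.2% in naive (35.1 to 41.4), which overlaps Cd9, and 31.5% in each leukemic library. In cells without a neutrophil marker Cd9 had more UMIs than Cd53 in naive too (128 against 104), and its share was 40.5% in naive (35.1 to 46.2) and 43.2% in D14 (40.9 to 45.5). Cd82 took 14.4%, 14.8% and 18.9%, and Cd37 took 9.44%, 5.81% and 4.77%. These shares are tied to each other because they sum to the whole. Over all filtered cells the Cd9 level was 143, 142 and 134 CPM. That total holds the UMIs of erythroid-like cells (15029499 in D11) and of early B-like cells (24351136 in D14). Cd9 was low in both classes, so the value does not give its level in the other cells. Neutrophil-like cells held 58.4%, 61.9% and 39.7% of all Cd9 UMIs in naive, D11 and D14. The ncMono-like cells, which numbered 125, 194 and 612, held 8.62%, 16.5% and 44.4%.

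**Figure D3:**
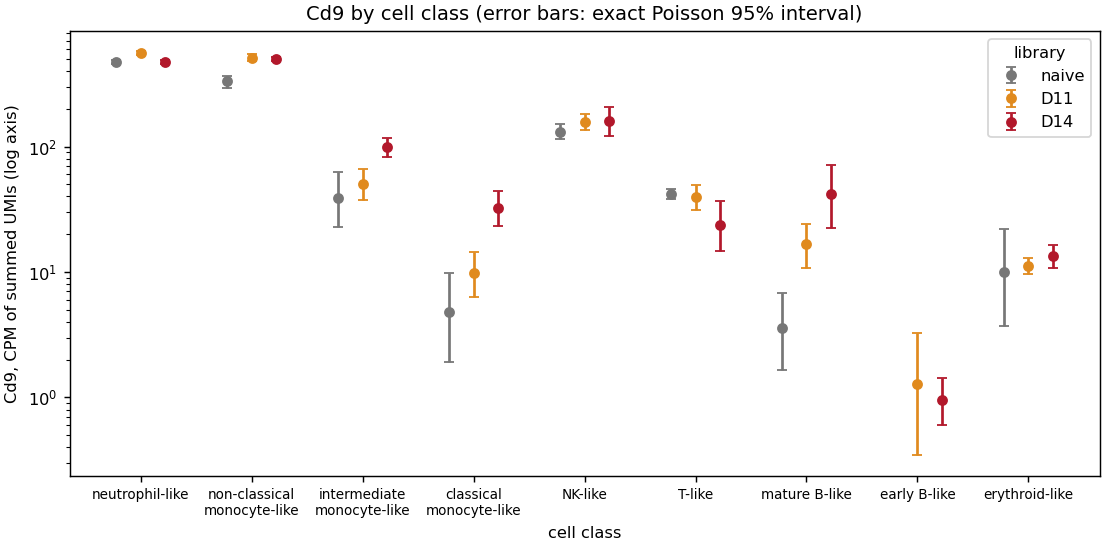
Cd9 in 9 cell classes (CPM of summed UMIs, log axis) for the naive, D11 and D14 libraries, with exact Poisson 95% intervals as error bars. Neutrophil-like and ncMono-like cells lie between 331 and 554 CPM, and early B-like cells are near 1 CPM.

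Neutrophil-like cells kept a high Cd9 level throughout. They had 472, 554 and 473 CPM, so D11 was 1.17-fold of naive (1.11 to 1.24) and D14 was level with naive (ratio interval 0.946 to 1.06), or above it by 0.31 on the log2 scale with TMM factors. Cd82, at 149.6, 147 and 96.9 CPM, was lower in D14 (0.648-fold, 0.579 to 0.725) and within counting error of naive in D11. Cd37 at 255, 238 and 212 CPM and Cd53 at 638, 535 and 551 CPM were lower in D14 in CPM, with log2 ratios of -0.27 and -0.21, but both turned to the other side of naive with TMM factors (0.04 and 0.10). All genes above 50 CPM in this class had a median log2 ratio of -0.24. The median of the 5 members above the same minimum was -0.21. None of them was past 2-fold, where 15.5% of all genes were.

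The mix of neutrophil-like cells differed between the libraries, and Cd63, a membrane protein of granules, differed between its parts. Cells with at least 4 genes of the granule list, called immature here, numbered 13, 118 and 302. In the other, mature neutrophil-like cells Cd63 was 86.9, 92.8 and 42.4 CPM, 0.488-fold in D14 (0.401 to 0.592). It was the 1 of 5 members above 50 CPM past 2-fold there, where 289 of 2782 genes were. TMM factors were not computed for the mature cells alone. For the whole class they add 0.31 to a D14 log2 ratio. The immature cells had 151, 157 and 130.4 CPM. Over the whole class it was 88.5, 103 and 78.2 CPM, and the D14 ratio was 0.884-fold with an interval that spans no difference (0.772 to 1.01) and turned to a log2 ratio of 0.13 with TMM factors.

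Within D14, Cd63 was 3.07-fold higher in immature than in mature neutrophil-like cells (2.52 to 3.77). It was the only one of 5 members above 50 CPM past 2-fold, where 14.3% of all genes were. Cd81 was at 22.2 against 3.51 CPM, below the minimum mean of 50 CPM for that count. Cd82 had the other order, with 74.6 CPM in immature and 112 in mature cells, as had Cd53 with 438 against 629. The D14 library held more immature cells, and its Cd82 level was also lower than in naive within the mature cells. Mature cells alone held 685 Cd82 UMIs among 4558518 in naive and 384 among 3419072 in D14. Immature cells held 15 among 119448 in naive and 175 among 2347158 in D14. The part of the mix in the Cd82 level was not tested. Cd9 did not differ between them beyond counting error (481 and 467 CPM, ratio interval 0.953 to 1.11). Outside the neutrophil-like class Cd63 was high in basophil-like cells, at 803, 1172 and 1071 CPM. It was at 15.4 CPM or less in monocyte-like, lymphoid and erythroid-like classes. In naive ncMono-like cells all 10 Cd63 UMIs came from 1 cell.

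T-like cells carried more Cd82 in the leukemic libraries. The level was 40.3 CPM in naive, 113 in D11 and 119 in D14, 2.79-fold (2.37 to 3.29) and 2.96-fold (2.37 to 3.67). Cd82 was the only one of 3 members above that minimum past 2-fold in D14, where 5.56% of all genes were. Both Cd4-bearing cells (39.1, 99.97 and 107 CPM) and Cd8-bearing cells (35.0, 85.5 and 96.3 CPM) showed it, the latter from 49 and 32 cells in D11 and D14.

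The make-up of the T-like class moved as well. S100a4, a calcium-binding protein found in effector and memory T cells, was present in 10.1% of naive T-like cells, 46.2% of those in D11 and 54.6% of those in D14. This split was chosen after the data were seen. Cells with S100a4 had 97.1, 177 and 162 CPM of Cd82, and cells without it had 32.6, 34.3 and 48.3. The intervals of the cells without it overlapped between naive (29.1 to 36.3) and both D11 (23.2 to 49.0) and D14 (27.6 to 78.4). In the cells with S100a4 the naive interval (81.3 to 115) lay below those of D11 (152.8 to 204.6) and D14 (130.4 to 199.8). The part of this mix in the Cd82 level was not tested further.

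Cd9 in T-like cells was 42.0, 39.4 and 23.9 CPM. The D14 value rests on 21 UMIs in 108 cells (0.569-fold, 0.349 to 0.880). The log2 ratio was -0.02 when cells with markers of a second class were kept. Those cells can bring Cd9 of the second class, so that value cannot decide the level in T-like cells. In naive, Cd4-bearing cells had 48.1 CPM of Cd9 and Cd8-bearing cells 14.9, a 3.22-fold ratio (2.24 to 4.79). Cd81 had the same order there, at 16.4 against 1.40 CPM. Cd37 in T-like cells was 115, 155 and 119 CPM, so D11 stood above naive (1.35-fold, 1.18 to 1.53) and D14 did not beyond counting error. Cd53 was 426, 407 and 360 CPM, 0.847-fold in D14 (0.754 to 0.949). NK-like cells showed smaller differences. Cd9 was 131, 158 and 159.8 CPM, Cd82 was 102, 83.0 and 88.4, and Cd53 was 285, 294 and 317. Cd37 was 180.5, 162 and 134 CPM, 0.743-fold in D14 (0.534 to 1.01). Each D14 interval of these 4 members included no difference in CPM, though with TMM factors that of Cd37 lay below it (log2 -0.50, -0.98 to -0.05), none of the 4 members above the minimum was past 2-fold, and 3.51% of all genes were.

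**Figure D4:**
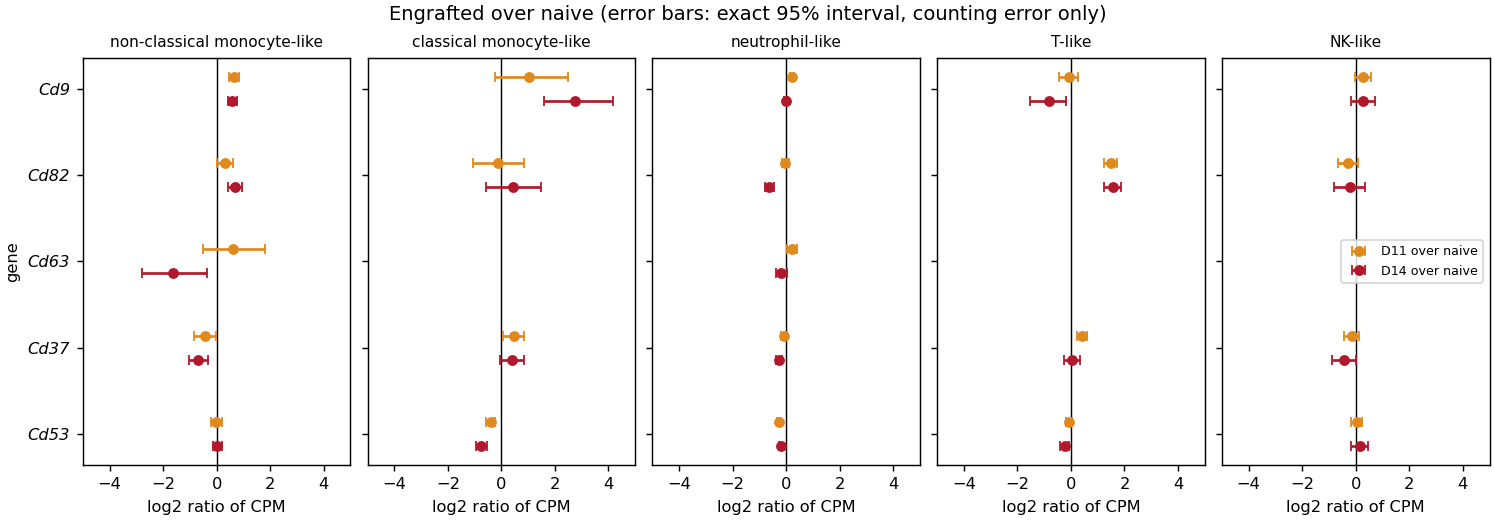
Log2 ratio of CPM in D11 and in D14 over naive for 5 tetraspanins in 5 cell classes, with exact 95% intervals as error bars and genes with few UMIs left out. The Cd82 points of T-like cells lie at 1.48 and 1.57, and the Cd9 points of ncMono-like cells at 0.63 and 0.59.

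In cMono-like cells the pan-leukocyte member Cd53 was lower with leukemia. It was 363, 276 and 216 CPM, 0.762-fold in D11 (0.679 to 0.856) and 0.595-fold in D14 (0.512 to 0.690). Intermediate monocyte-like cells had 317, 301 and 209 CPM. The sum of the listed marrow progenitor markers rose across the same libraries. The 7 markers summed to 21.9, 105 and 189 CPM in cMono-like cells and to 9.18, 24.3 and 61.3 CPM in intermediate cells. Most of their UMIs in cMono-like cells were Prtn3 (30, 195 and 186), beside 0, 34 and 35 of Elane. Kit, Cd34, Mpo and Ms4a3 were at 0 in naive and at 1 to 5 UMIs each later, and Ctsg had 2, 17 and 5. In intermediate cells Prtn3 had 3, 19 and 67 UMIs. The part of these markers in the Cd53 level, and in the Cd9 level of the same cells, was not tested. Cd37 in cMono-like cells was 55.5, 76.2 and 72.5 CPM, above naive in D11 (1.37-fold, 1.05 to 1.81) and within counting error of it in D14. Neither of the 2 members above the minimum was past 2-fold in D14, against 6.62% of all genes.

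The B-lineage cells carried the widest contrasts of the lymphoid members. Mature B-like cells had the highest Cd37 of the larger classes, at 715, 679 and 578 CPM (40 cells in D14). Early B-like cells, nearly all from the leukemic libraries, had 146 CPM in D11 and 204 in D14, so the D14 level was 0.286-fold that of naive mature B-like cells (0.271 to 0.302). Cd53 was further apart, at 24.7 and 69.7 CPM in early B-like cells against 381 in naive mature ones, 0.183-fold in D14 (0.169 to 0.198). CPM is a share of the class total, and early B-like cells were deeper (median 31482 UMIs in D14 against 5993 in naive mature cells). The 751 early B-like cells of D14 held 4973 Cd37 and 1697 Cd53 UMIs. The 399 naive mature B-like cells held 1788 and 953. A lower CPM here does not by itself mean fewer UMIs per cell. Cd81 was not lower in CPM. It had 83.3 and 86.1 CPM in the early B-like cells of D11 and D14, and 66.4 and 69.0 in the mature B-like cells of naive and D11 (D14 early over naive mature 1.30-fold, 1.11 to 1.53). The same 751 and 399 cells held 2096 and 166 Cd81 UMIs. Of the 3 members above the minimum between D14 early and naive mature cells, 2 were past 2-fold (Cd37 and Cd53), where 44.6% of all genes were.

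Cd9 was close to absent from early B-like cells. The 751 cells of D14 held 23 Cd9 UMIs among 24351136 in all (0.945 CPM, 0.599 to 1.42), and the 102 cells of D11 held 4 (1.27 CPM). No cell held more than 1. The ncMono markers in these cells would bring 6.71 and 7.71 CPM of Cd9 at the ncMono-like ratio, more than was measured. Cd82 was also low in CPM, at 8.87 and 11.7 against 36.8 in naive mature B-like cells. In UMIs, the 751 early cells of D14 held 286 and the 399 naive mature cells held 92, so it was not lower per cell.

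Early B-like cells differed among themselves. In D14 the 538 cells with cycling genes had 186 CPM of Cd37 and the 213 others had 275, and Cd53 was 60.3 against 107. Their ratios were 0.678-fold (0.636 to 0.722) and 0.564-fold (0.508 to 0.626), while Cd81 was alike at 85.2 and 89.4 CPM (0.953-fold, 0.857 to 1.06). These are ratios of CPM, and the cycling cells were deeper (median 35341 against 23404 UMIs). The 538 cycling cells held 3623 Cd37 and 1172 Cd53 UMIs, and the 213 others held 1350 and 525. Between D11 and D14 Cd53 was 2.82-fold higher (2.25 to 3.59), and within cycling cells 2.53-fold (1.99 to 3.26). Its mean was below the minimum of 50 CPM, and the D11 level rests on 78 UMIs in 102 cells. Of 3858 genes above that minimum in early B-like cells, 69 were past 2-fold, with 0 of the 2 members among them. Early B-like cells were also deep (median 29986 and 31482 UMIs in D11 and D14, against 5993 in naive mature B-like cells). In D14 they held 85.6% of all Cd81 UMIs, 64.4% of Cd37, 18.5% of Cd53 and 10.8% of Cd82. Such shares depend on the size of the class, which held 24351136 UMIs in D14. The next largest class, erythroid-like cells, held 6363568.

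**Figure D5:**
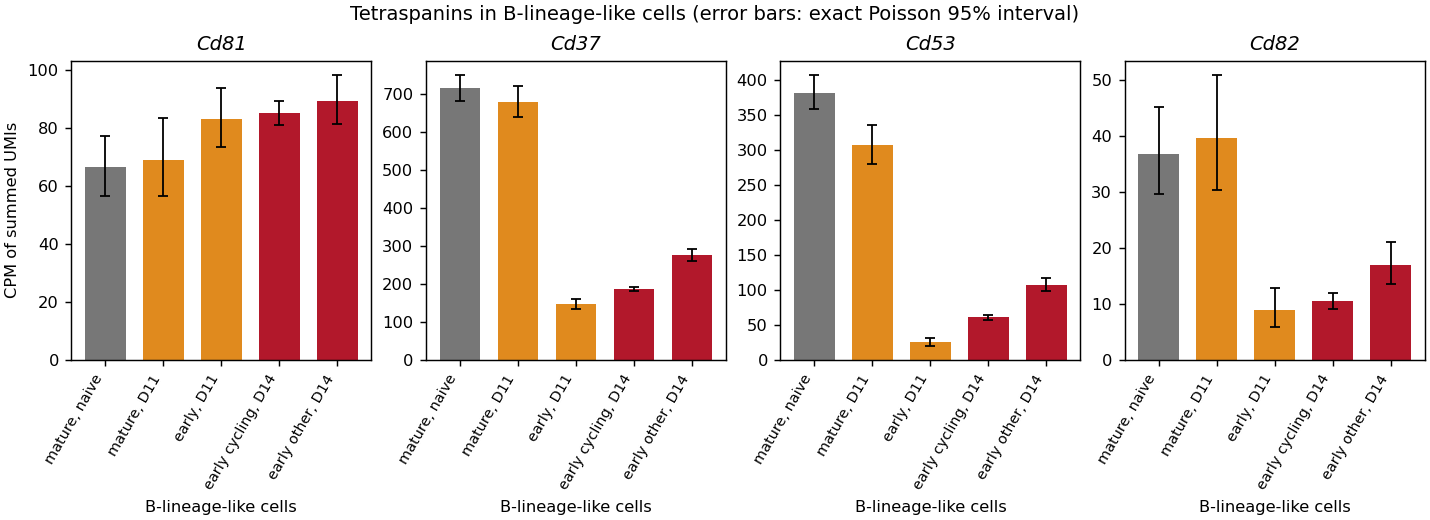
Cd81, Cd37, Cd53 and Cd82 (CPM of summed UMIs, axes from 0) in mature and early B-like cells, with exact Poisson 95% intervals as error bars. As shares of the class total, Cd37 and Cd53 are lower in early cells (146 and 24.7 CPM in D11), and Cd81 is not (83.3 CPM).

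In mature B-like cells Cd9 was 3.598, 16.6 and 41.8 CPM, from 9, 26 and 13 UMIs. Neutrophil markers summed to 15.2, 49.2 and 70.7 CPM there and would bring 0.616, 1.67 and 1.31 CPM of Cd9, and ncMono markers would bring 2.75, 4.32 and 3.25. Their part in the Cd9 level was not tested. The D14 value rests on 40 cells, of which 8 had a Cd9 UMI, and on up to 6 UMIs in 1 cell. Cd151 was low in every larger class, at 11.7 CPM or less, with cMono-like cells at 11.7, 7.75 and 10.4. Platelet-like barcodes had 355 CPM in naive and 601 in D14, from 2 and 10 UMIs. Cd81 was at 1064 CPM in the naive platelet-like barcodes (6 UMIs) and at 208 CPM in the 9 progenitor-like cells of D11.

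Across 24 sums of class and library, Pglyrp1 followed Cd9 most closely among 6937 genes (Pearson r = 0.91 on log values). Itgax, the integrin chain CD11c, and G0s2 had r = 0.87, Nabp1 had 0.86 and Itgal, a chain of LFA-1, had 0.85. Of the members, Cd82 was nearest to Cd9 (r = 0.82) and Cd81 farthest (r = -0.30). These sums share libraries, and the 3 libraries repeat the same classes, so the coefficients are descriptions.

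Of 24 other listed tetraspanins found in the count tables, 4 reached 100 CPM in any of these sums. Tspan13 was the one that moved most. It was 575, 416 and 207 CPM in neutrophil-like cells (log2 -1.47 in D14, or -1.17 with TMM factors). In cMono-like cells it was 132, 86.0 and 41.4 (-1.68, or -1.81) and in ncMono-like cells 191, 124 and 103 (-0.89, or -0.67). Of all genes 15.5%, 6.62% and 5.29% were past 2-fold in D14 in these classes. Tspan2 was 125, 121 and 70.4 CPM in neutrophil-like cells. It was also 76.6 and 108 CPM in early B-like cells against 8.40 in naive mature B-like cells. Tspan5 and Tspan14 belong to the TspanC8 group, which carries the protease Adam10 to the surface. Tspan14 was 272, 225 and 249.6 CPM in ncMono-like cells and Tspan5 was 103, 108 and 126, and Adam10 was 165, 155 and 203. These were the only 2 of 6 TspanC8 genes high enough to compare, and neither was past 2-fold in D14 in ncMono-like cells, where 5.29% of all genes were.

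Of 16 listed partners of tetraspanins, 5 reached 100 CPM and were past 2-fold between naive and D14 in a class. They were 3 of 6 partners compared in ncMono-like cells, 1 of 4 in neutrophil-like and 1 of 6 in T-like cells, where 5.29%, 15.5% and 5.56% of all genes were past it. In cMono-like and NK-like cells 0 of 4 and 0 of 3 partners compared were past it, against 6.62% and 3.51% of all genes. With TMM factors 3 of the 5 were no longer past 2-fold, and others would pass it. Itgb1, the integrin beta chain that pairs with many alpha chains, was 281, 743 and 769.8 CPM in T-like cells (log2 1.45, or 1.31 with TMM factors). In ncMono-like cells Itgb3 was 20.3, 46.7 and 119.5 CPM (log2 2.56, or 2.77), Cd36, a scavenger receptor, was 948, 501 and 466 (-1.025, or -0.81), and Ifitm3, an interferon-induced membrane protein, was 2057, 1894 and 1004 (-1.035, or -0.82). Itga4 was 1153, 879 and 543 CPM in neutrophil-like cells (-1.09, or -0.78). Other partners were short of 2-fold in CPM and would pass it with the TMM shifts given above. They were Ifitm1 and Ifitm3 in neutrophil-like cells (log2 0.92 and 0.88), Ifitm3 in cMono-like cells (-0.94) and Itga6 in T-like cells (-0.90). Cr2, a complement receptor of mature B cells, was 1.27 and 1.15 CPM in the early B-like cells of D11 and D14, against 208 in naive mature B-like cells.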

How the data were processed

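Single cells were sequenced with the 10x Genomics 3′ v3 chemistry, and the values deposited by the authors are raw counts (UMIs per gene and barcode). The submitters' processing notes name Cell Ranger 7.1.0 and mm10, while the matrix headers name Cell Ranger 5.0.1. Depth was 30362408 (naive), 57640396 (D11) and 65861863 UMIs (D14). A barcode entered with 200 or more genes and no more than 10% of its UMIs mitochondrial. It joined the class with the most markers found, at least 3, unless a second list had more than 0.5 times as many, which also removes many doublets. Barcodes with at least 50% hemoglobin UMIs were erythroid-like. Intervals are at 95%: exact Poisson for CPM, exact conditional binomial for ratios, Clopper-Pearson for shares (scipy 1.17.1). Nothing was tested across conditions. Background shares count genes past 2-fold among those with a mean of at least 50 CPM. Alternatives used Scrublet (scanpy 1.11.5), which removed 116, 167 and 156 barcodes, and TMM (edgeR 4.0.16). Other tetraspanins were named at 100 CPM in a class sum of at least 50 cells, and partners if also past 2-fold between naive and D14; Adam10 and Cr2 were named outside that rule as known partners. One listed item is not reported here. Members, lists and rules were chosen with earlier results of these data known. The marker-ratio values and the TMM ratios of partners, Tspan13 and erythroid-like cells were chosen after seeing the data.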

Additional observations from a re-analysis of the deposited data

Results flagged for a closer look

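Cd82 moved one way in T-like cells and the other way in erythroid-like cells. Its log2 ratio of D14 over naive was 1.57 in T-like cells and -2.09 in erythroid-like cells (23.4, 11.7 and 5.50 CPM in naive, D11 and D14), and D11 lay on the same sides (1.48 and -1.001). With TMM factors, which shift erythroid-like ratios by 0.87 in D11 and 0.48 in D14, the erythroid-like ratio was -0.14 in D11 (-0.92 to 0.77), so that difference was lost, and -1.61 in D14 (-2.54 to -0.61). The erythroid-like value rests on 14 UMIs in 63 naive cells and 35 UMIs in 1061 cells of D14. The difference between the classes was not tested.

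Barcodes left out for more than 10% mitochondrial UMIs, 511, 562 and 1430 with at least 200 genes, also held Cd9. After hemoglobin genes were set aside its level was 121 CPM in D11 (100.2 to 145), above 73.8 in naive (56.2 to 95.1), and 87.9 in D14. The platelet markers in the same barcodes summed to 77.5, 121 and 35.3 CPM, and their part in the Cd9 level was not tested.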

How the results depend on the processing

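No paired analysis was possible because each condition had 1 library, and for the same reason no replicate could be left out. Of 132 alternative values for the 14 leading results, 115 stayed within the counting interval of the reported value, 17 lay outside it and 0 changed the sign of a ratio whose interval excluded no difference. Of 458 for 44 other results, 443 stayed inside, 13 lay outside and 2 changed such a sign. The neutrophil-like Cd63 ratio, whose interval spanned no difference, also moved to the other side with TMM factors (0.13). With TMM factors the Cd9 level of ncMono-like cells was 213.8 CPM in naive and 373 in D14, its D14 log2 ratio was 0.80 there and 0.31 in neutrophil-like cells, and the neutrophil-like ratios of Cd37 and Cd53 changed sign to 0.040 and 0.095. With cells carrying a second class's markers kept, Cd9 was 468 CPM in D14 ncMono-like cells, its T-like ratio was -0.018 and its ratio of ncMono-like to cMono-like cells was 4.22, 4.65 and 3.48 in naive, D11 and D14. Without hemoglobin, ribosomal and mitochondrial genes the D14 ncMono-like level was 553.5 CPM. In ncMono-like cells without a neutrophil marker, chosen after seeing the data, Cd9 was 374 CPM in naive and 523 in D14, its share of the family was 40.5% in naive and 43.2% in D14, and 41.5% of the thinned D14 cells had a UMI. Thinned to 2000 UMIs the shares were 40.7% in naive and 57.0% in D14. With no minimum level 41.7% of all genes were past 2-fold in ncMono-like cells. Depth limits the cMono-like, mature B-like and rare classes most, where Cd9 rests on few UMIs, and intervals cover counting error only.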
